A study of Homo sapiens and Mus musculus with 56 samples.

Results

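MOLM-13 is an established human acute myeloid leukaemia line that carries a fusion of KMT2A with MLLT3. Its expression under a combination of EPZ004777 and MI-2-2 was compared with its expression under MI-2-2 alone, which shows what EPZ004777 added in the presence of MI-2-2. The 6 arrays of the comparison, 3 for each group, were taken by their titles from 56 arrays in the whole series. EPZ004777 inhibits DOT1L, and MI-2-2 inhibits menin. The MI-2-2 group received 3 µM MI-2-2 for 4 days, and the combination group received both compounds for 4 days, with each dose read as that of the single treatment, 3 µM. The line's other groups, EPZ004777 at 3 µM and the DMSO solvent alone, also had 3 arrays each and entered the same model, so that all 12 arrays estimated the spread. MOLM-13 is 1 line, and the replicates are described as biological. The p-values therefore measure the spread between cultures of this line, and the number of arrays limits their precision.

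DOT1L is a methyltransferase that methylates histone H3 along transcribed genes. KMT2A fusion proteins recruit it through partners such as MLLT3, and they depend on menin to reach their target genes, among them HOX genes, MEIS1 and PBX3. These targets keep leukaemic blasts in an immature state. Mature monocytes and neutrophils are recognised by surface receptors, calcium-binding proteins and some granule proteins. Not every granule enzyme marks mature cells: MPO and LYZ are also among the myeloid blast markers used here.

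The labelled cell type was compared with its markers. Of 8 myeloid blast markers 7 had a probe set of their own and all 7 passed the filter on dim signals, with a mean log2 signal of 10.94 to 11.18 on the MI-2-2 arrays and 11.86 to 11.90 on the combination arrays. Of these 7 blast markers 6 were called higher and 1, FLT3, lower, against 17.7% and 21.5% of all genes. MPO (2.43) and ANPEP (1.96) rose most, and ANPEP was not called without probe sets shared between transcripts. Markers of B cells, erythroid cells, megakaryocytes and stroma that passed the filter numbered 5, 3, 3 and 4, and none was called in this comparison. Array medians lay between 6.18 and 6.25. The difference between 3′ and 5′ actin probe sets, which rises as RNA degrades, was 0.96 to 0.97 on the combination arrays and 1.05 to 1.23 on the MI-2-2 arrays. Its part in the results was not tested. In RNA from whole cultures, fewer cells of a type and less RNA per cell cannot be told apart.

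Adding EPZ004777 to MI-2-2 raised neutrophil and monocyte genes and lowered KMT2A fusion targets, amino acid stress genes, and genes of MYC and ribosome biogenesis. Of 14209 genes tested, 5576 passed the threshold, an adjusted p below 0.05 in limma (39.2%), and are called here. Of these, 2522 rose (17.7%) and 3054 fell (21.5%). Most changes were small: 3464 of the called genes moved by less than 0.5 on the log2 scale, while 322 rose by at least 1 (2.27%) and 207 fell by at least 1 (1.46%), together 529 (3.72%). The 3 arrays of 1 group all lay on the same side of the 3 of the other for 6996 genes (49.2%). The median change over all genes was -0.02. Because 39.2% of all genes were called, a list with a similar share of called members does not stand apart.

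**Figure D1:**
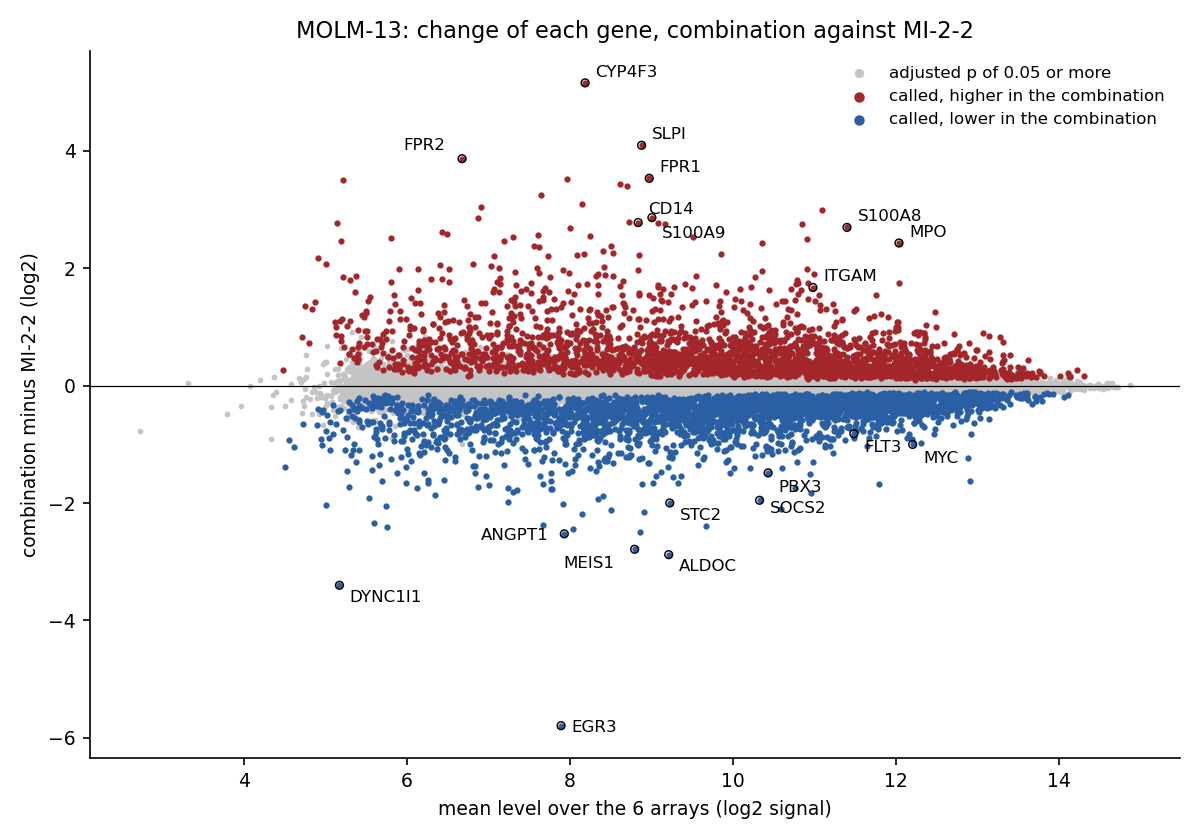
Each point is 1 of 14209 genes, with its mean log2 signal over the 6 arrays on the horizontal axis and the log2 change from MI-2-2 to the combination on the vertical axis. Red and blue points were called higher and lower at an adjusted p under 0.05, grey points were not, and CYP4F3 and EGR3 lie at the extremes.

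The KMT2A fusion targets fell together. All 13 members that passed the filter, of 20 listed, were called lower, against 21.5% of all genes, and their median change was -0.44, against -0.02 over all genes. The list was chosen with earlier results of these data known and is not independent evidence of its direction. MEIS1, a homeobox cofactor that sustains leukaemic self-renewal, had log2 signals of 7.40, 7.36 and 7.46 with the combination and 10.19, 10.08 and 10.31 with MI-2-2. The 3 combination arrays were all far below the 3 MI-2-2 arrays. MEIS1 fell by 2.79 ± 0.06 (SE) on the log2 scale, a 6.9-fold lower signal (limma adjusted p = 1.41e-09). PBX3, which encodes a binding partner of MEIS1 and HOX proteins, had signals of 9.78, 9.61 and 9.69 with the combination and 11.17, 11.19 and 11.17 with MI-2-2. The groups did not overlap, and PBX3 changed by -1.49 ± 0.06. SATB1, a chromatin organiser, changed by -1.02 ± 0.05, the receptor tyrosine kinase FLT3 by -0.82 ± 0.07, and the cell cycle kinase CDK6 by -0.60 ± 0.06. MEF2C, a transcription factor of myeloid progenitors, changed by -0.44 ± 0.06. At the small end, MYB changed by -0.14 ± 0.04, and its call was lost without combination replicate 1. Neither drug target itself was called: DOT1L changed by -0.09 ± 0.10 (adjusted p = 0.565) and MEN1 by -0.17 ± 0.15 (adjusted p = 0.409), with overlapping arrays.

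**Figure D2:**
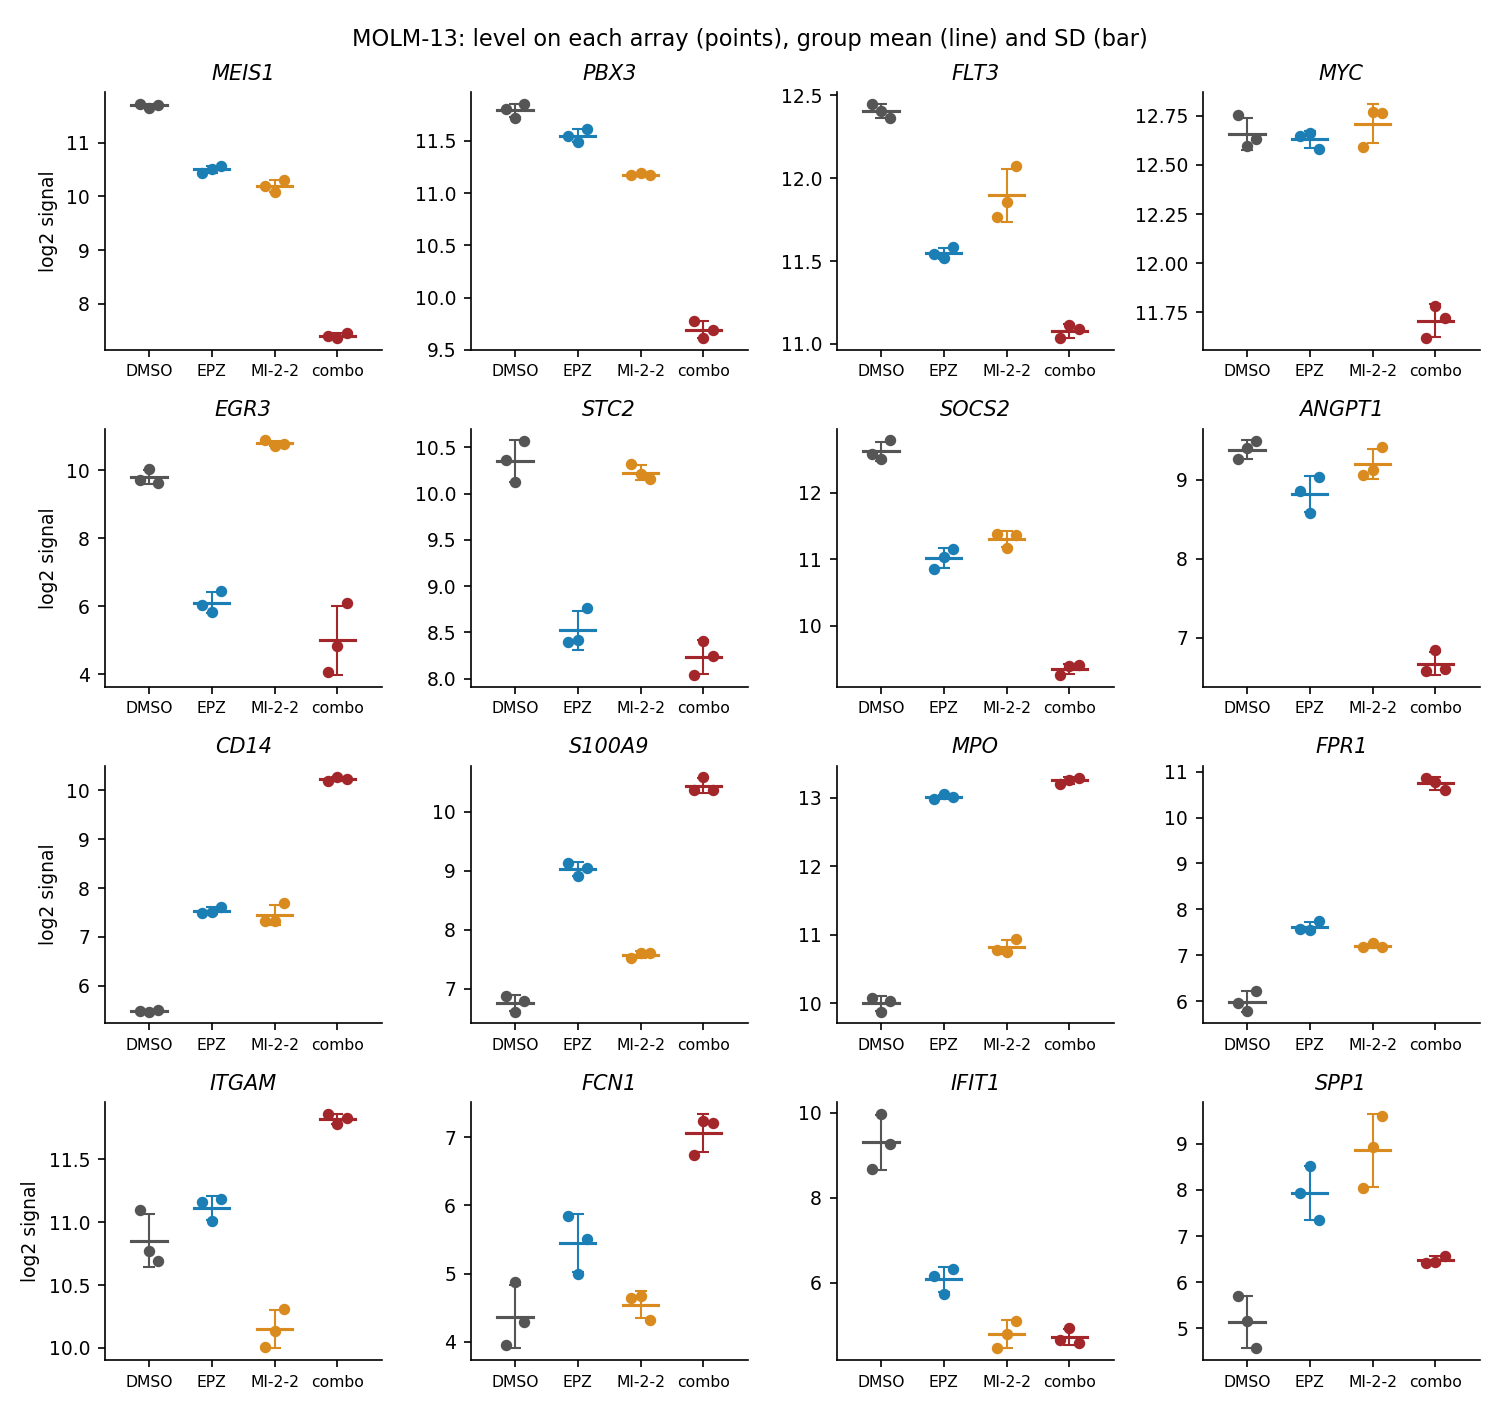
Log2 signals of 16 genes on the 12 MOLM-13 arrays, 3 per group (EPZ, EPZ004777; combo, combination), with a line at the group mean and a bar of 1 SD; each panel has its own vertical scale, which does not start at 0. MEIS1 was lowest and CD14 highest with the combination, while IFIT1 was low in both groups that received MI-2-2.

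The largest rises were in genes of mature neutrophils and monocytes. CYP4F3, a leukotriene-inactivating enzyme of neutrophils, had log2 signals of 10.84, 10.77 and 10.69 with the combination and 5.76, 5.36 and 5.71 with MI-2-2. All combination arrays lay above all MI-2-2 arrays, and 1 MI-2-2 array was below percentile 40 of its own signals. The rise was 5.16 ± 0.14, or 35.7-fold (adjusted p = 3.78e-09). SLPI, a secreted inhibitor of neutrophil elastase, rose by 4.09 ± 0.12. The receptors for formylated bacterial peptides rose by 3.87 ± 0.13 (FPR2) and 3.53 ± 0.11 (FPR1), though FPR2 was below percentile 40 on all 3 MI-2-2 arrays. CLEC5A, a myeloid lectin receptor, rose by 3.09 ± 0.18, and SERPINA1, another protease inhibitor, by 3.05 ± 0.20, from signals below percentile 40 on 2 of 3 MI-2-2 arrays. Not all the leading genes were markers of mature myeloid cells. SLC8A1, a sodium-calcium exchanger, rose by 3.51 ± 0.12, LRRK2, a kinase, by 3.44 ± 0.11, GPAT3, an enzyme of glycerolipid synthesis, by 3.39 ± 0.13, and OLIG1, a transcription factor best known from oligodendrocytes, by 3.25 ± 0.12. GRAMD1C, SHISA2, CEACAM6 and MARCHF1 completed the 15 largest rises with S100A9, at 3.50 ± 0.11, 2.99 ± 0.16, 2.86 ± 0.29 and 2.80 ± 0.24. GRAMD1C was below percentile 40 on all 3 MI-2-2 arrays and CEACAM6 on 2 of them.

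Of 23 neutrophil and granule genes that passed the filter (27 listed), 17 rose and none fell, against 17.7% and 21.5% of all genes, with a median change of 0.34. S100A9, a calcium-binding protein abundant in neutrophils and monocytes, had signals of 10.37, 10.58 and 10.37 with the combination and 7.51, 7.61 and 7.61 with MI-2-2. The groups did not overlap, and the rise was 2.86 ± 0.09. Its partner S100A8 rose by 2.70 ± 0.10. MPO, the peroxidase of primary granules, had signals of 13.20, 13.27 and 13.30 with the combination and 10.78, 10.75 and 10.95 with MI-2-2. The groups did not overlap, and MPO rose by 2.43 ± 0.07. CAMP, an antimicrobial peptide of secondary granules, rose by 2.38 ± 0.15, and CYBB, the catalytic subunit of the phagocyte oxidase, by 1.74 ± 0.08. The other granule proteases moved little: ELANE changed by 0.10 ± 0.05 and PRTN3 by 0.14 ± 0.07, both not called, and the rises of AZU1 (0.25 ± 0.06) and CTSG (0.27 ± 0.04) were lost in a fit of all 44 human arrays. In that fit 11 genes of the list rose and 1 fell. LTF, the lactoferrin of secondary granules, changed by -0.39 ± 0.17 and was not called.

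Of 20 monocyte and macrophage genes that passed the filter (26 listed), 16 rose and none fell, against 17.7% and 21.5% of all genes. Their median change was 0.85. CD14, a co-receptor for bacterial lipopolysaccharide, had signals of 10.19, 10.27 and 10.23 with the combination and 7.33, 7.34 and 7.69 with MI-2-2. All combination arrays were higher, and the rise was 2.78 ± 0.09, or 6.86-fold (adjusted p = 6.64e-09). FCN1, a lectin of monocytes, rose by 2.52 ± 0.26 from signals below percentile 40 on all 3 MI-2-2 arrays. The scavenger receptor CD36 rose by 2.24 ± 0.12, and the fungal glucan receptor CLEC7A by 1.91 ± 0.17. The integrin chain ITGAM, known as CD11b, had signals of 11.86, 11.78 and 11.83 with the combination and 10.00, 10.13 and 10.31 with MI-2-2. These groups did not overlap, and ITGAM rose by 1.67 ± 0.11. The growth factor receptor CSF1R rose by 0.95 ± 0.15 and the co-stimulatory protein CD86 by 1.38 ± 0.11. VCAN (-0.37 ± 0.18), C1QA (-0.14 ± 0.12), CD300A (0.06 ± 0.12) and CTSB (0.08 ± 0.05) were not called. The rise of LYZ, the lysozyme gene, was 0.16 ± 0.06, and its call was lost in several alternatives.

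Among 18 myeloid transcription factors, 12 rose and 2 fell, with a median change of 0.44. BCL6, a repressor, rose by 1.16 ± 0.09, and CEBPE, a factor of late granulocyte maturation, by 1.12 ± 0.11. SPI1, which encodes PU.1, rose by 0.35 ± 0.08. CEBPA (0.04 ± 0.08), CEBPB (-0.04 ± 0.05) and GFI1 (-0.05 ± 0.04) were not called. EGR1, an immediate early gene, went the other way and fell by 1.62 ± 0.12. The stem and progenitor genes had no common direction, with 3 rises and 3 falls among 16 (6 falls without MI-2-2 replicate 3). Over all genes 17.7% rose and 21.5% fell. ANGPT1, which encodes a ligand of the receptor TEK, had signals of 6.58, 6.84 and 6.60 with the combination and 9.06, 9.12 and 9.41 with MI-2-2. No overlap was seen, and ANGPT1 fell by 2.52 ± 0.13, GATA2, a progenitor transcription factor, by 0.78 ± 0.11, and IGF2BP2, an RNA-binding protein, by 0.75 ± 0.04.

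3 markers of T and NK cells also rose, as did 17.7% of all genes. Of 8 T and NK cell markers with a probe set, 3 passed the filter, and these had a median change of 1.61. CD3D had signals of 11.15, 11.34 and 11.12 with the combination and 9.33, 9.45 and 9.29 with MI-2-2. The groups did not overlap, and the rise was 1.85 ± 0.11. GNLY rose by 1.61 ± 0.11 and NKG7 by 0.90 ± 0.09. The other 5 markers of that list stayed below the filter, and the mean over all 8 was 6.50 to 6.59 with the combination and 5.89 to 5.98 with MI-2-2. The culture was labelled as a single line.

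**Figure D3:**
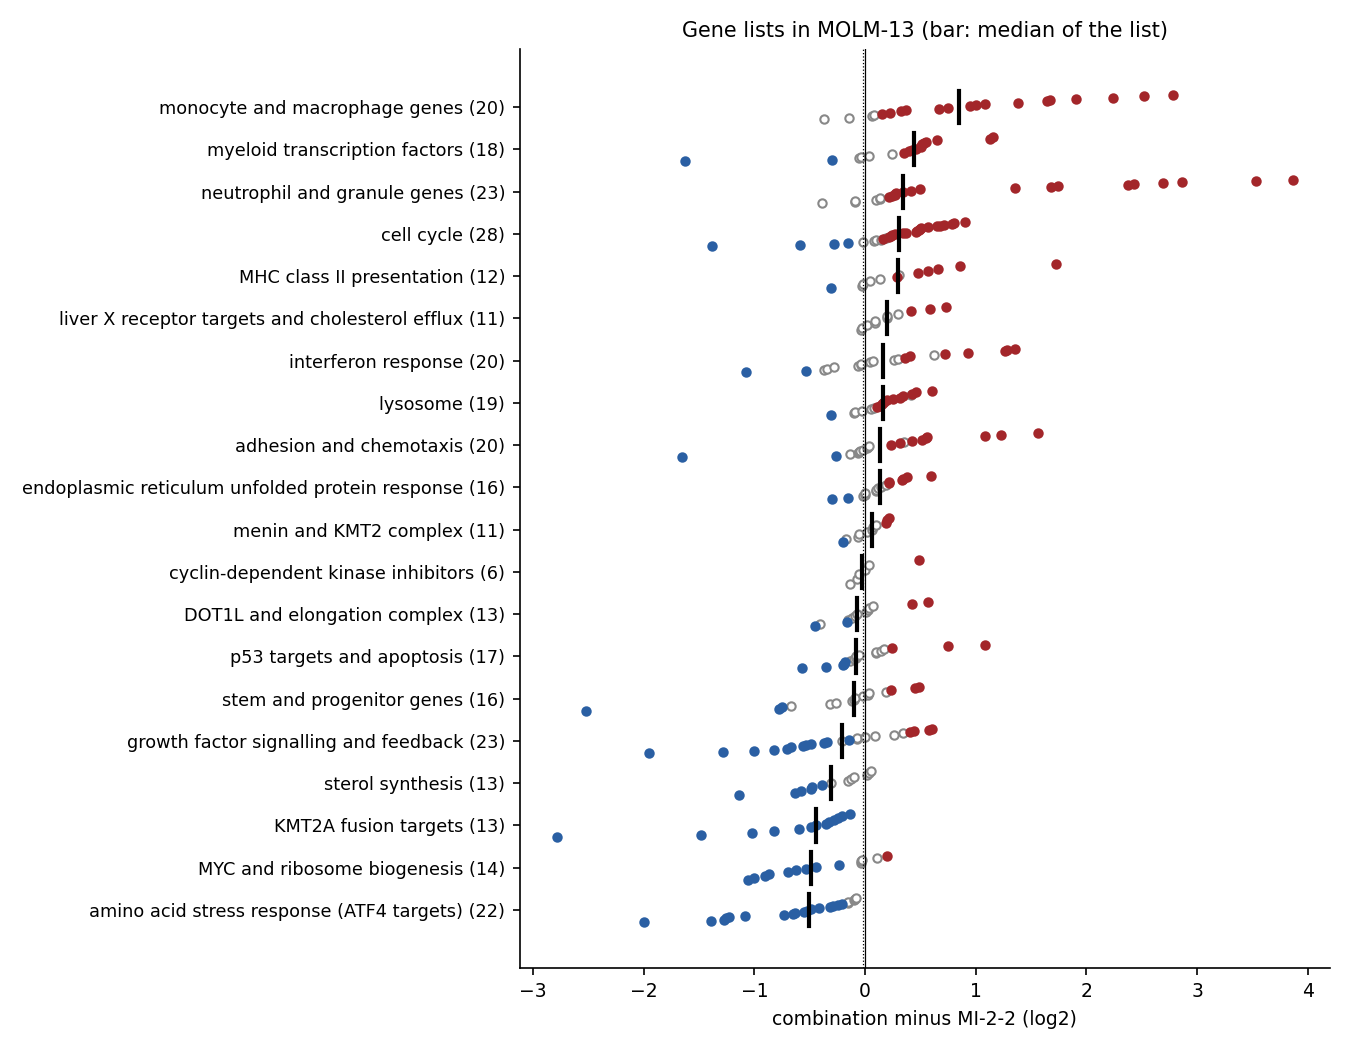
Log2 change from MI-2-2 to the combination for every gene of 20 lists that passed the filter, 1 point per gene, with the number of such genes in brackets. Red and blue points were called higher and lower, open points were not called, black bars mark list medians and the dotted line the median of all genes at -0.02; all 13 KMT2A fusion targets are blue.

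The largest fall was that of EGR3, an immediate early transcription factor. Its signals were 4.08, 4.83 and 6.08 with the combination and 10.87, 10.72 and 10.78 with MI-2-2. The combination arrays were spread widely, 2 of them below percentile 40, but all lay below the MI-2-2 arrays. EGR3 fell by 5.79 ± 0.39 (adjusted p = 1.38e-06). DYNC1I1, a dynein chain, fell by 3.40 ± 0.17 to below percentile 40 on all 3 combination arrays. ALDOC, a glycolytic aldolase, fell by 2.88 ± 0.28, RGS16, a regulator of G protein signalling, by 2.50 ± 0.15, and PDGFA, a growth factor chain, by 2.38 ± 0.23. HMX2, a homeobox gene, fell by 2.44 ± 0.14, and IL12RB2, a cytokine receptor chain, by 2.34 ± 0.24. NR4A3, an orphan nuclear receptor and early response gene, fell by 2.04 ± 0.21. SMKR1 changed by -2.42 ± 0.11, STON1 by -2.19 ± 0.14, EFNA5 by -2.15 ± 0.11 and AGMAT by -2.12 ± 0.11. IL12RB2, NR4A3 and SMKR1 were below percentile 40 on all 3 combination arrays.

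Of 23 genes of growth factor signalling and its feedback, 12 fell and 4 rose, against 21.5% and 17.7% of all genes. Their median change was -0.21. SOCS2, a feedback inhibitor induced by STAT5, had signals of 9.26, 9.39 and 9.41 with the combination and 11.38, 11.17 and 11.37 with MI-2-2. All combination arrays were lower, and SOCS2 fell by 1.95 ± 0.10. SOCS1 fell by 0.70 ± 0.11, CISH by 0.54 ± 0.05, and the kinases PIM1 and PIM2 by 0.37 ± 0.08 and 0.56 ± 0.10. DUSP6 and SPRY2, feedback inhibitors of the ERK pathway, rose by 0.60 ± 0.08 and 0.58 ± 0.06.

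The amino acid stress response, driven by the transcription factor ATF4, had 17 of 22 genes lower and none higher, with a median change of -0.51. Of all genes 21.5% were lower and 17.7% higher. STC2, a secreted glycoprotein induced by stress, had signals of 8.04, 8.41 and 8.24 with the combination and 10.32, 10.21 and 10.16 with MI-2-2. Every combination array was lower, and STC2 fell by 2.00 ± 0.14. The transcription factors ATF5 and ATF3 fell by 1.39 ± 0.09 and 1.27 ± 0.10, CHAC1, which degrades glutathione, by 1.25 ± 0.09, and DDIT4, an inhibitor of mTORC1, by 1.23 ± 0.06. Asparagine synthetase, ASNS, fell by 0.55 ± 0.05. ATF4 itself changed by -0.09 ± 0.04 and was not called. The unfolded protein response of the endoplasmic reticulum did not share this direction, with 6 of 16 genes higher, such as MANF (0.60 ± 0.10), and 2 lower.

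Of 14 genes of MYC and ribosome biogenesis, 9 fell and 1 rose, against 21.5% and 17.7% of all genes. Their median change was -0.49. MYC had signals of 11.62, 11.79 and 11.72 with the combination and 12.59, 12.77 and 12.77 with MI-2-2. The groups did not overlap, and MYC fell by 1.00 ± 0.07 (adjusted p = 1.44e-06). ODC1, the first enzyme of polyamine synthesis, fell by 1.06 ± 0.07, RRP9, a protein of the U3 ribonucleoprotein, by 0.87 ± 0.09, and POLR1B, a subunit of RNA polymerase I, by 0.69 ± 0.05. RRP12, an export factor for ribosomal subunits, fell by 0.90 ± 0.09, but not past the threshold on its probe sets without a shared suffix. MXD1, an antagonist of MYC, rose by 0.19 ± 0.05.

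The cell cycle list went up: 19 of 28 genes rose and 4 fell, with a median change of 0.31. The mitotic genes MKI67, CDC20, AURKB and BUB1 rose by 0.90 ± 0.14, 0.80 ± 0.09, 0.78 ± 0.10 and 0.72 ± 0.09. The falls included CCND1, cyclin D1, by 1.39 ± 0.07 and its kinase partner CDK4 by 0.59 ± 0.05; CCND1 was below percentile 40 on all 3 combination arrays. Of 6 inhibitors of cyclin-dependent kinases only CDKN2D was called, at 0.48 ± 0.11. Among 17 p53 targets and apoptosis genes 3 rose and 5 fell, against 17.7% and 21.5% of all genes. Only 2 fell without combination replicate 1 or 2, and 3 without combination replicate 3 or MI-2-2 replicate 2. BMF, which promotes cell death, rose by 1.08 ± 0.09, BCL2A1, which opposes it, by 0.75 ± 0.08, and BCL2 fell by 0.35 ± 0.04.

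Of 12 genes of MHC class II presentation 6 rose and 1 fell, against 17.7% and 21.5% of all genes. Those shares over all genes also apply to the lists that follow here. HLA-DQB1 led with 1.72 ± 0.05, on a probe set of the type shared between transcripts. HLA-DRA, HLA-DRB1, HLA-DPA1, HLA-DPB1 and HLA-DOA were not called, and RFX5 changed by -0.31. With MI-2-2 alone 7 of the 12 genes were lower than with DMSO and 1 higher, against 8.35% of all genes lower. Between DMSO and the combination HLA-DMB (-0.16), HLA-DMA (-0.19) and CIITA (0.17) were not called. HLA-DQB1 (2.02) and CD74 (0.34) were called higher there. Of 20 adhesion and chemotaxis genes 9 rose and 2 fell; the integrin chain ITGB7 rose by 1.56 ± 0.09 and the chemokine receptor CXCR2 by 1.23 ± 0.06, while the chemokine CCL4 fell by 1.66 ± 0.20. Of 19 lysosomal genes 11 rose and 1 fell, by at most 0.60. When 1 array was left out the lysosomal rises numbered 5 to 13. They numbered 5 without combination replicate 2 or 3, 6 without combination replicate 1 or MI-2-2 replicate 1 or 2, and 7 without any 1 of the EPZ004777 replicates. Sterol synthesis had 6 of 13 genes lower and none higher, among them SQLE, squalene epoxidase, which fell by 1.14 ± 0.09. Of 11 liver X receptor targets 3 rose, including the cholesterol exporter ABCG1 (0.73 ± 0.24), whose call was lost without any of the 3 combination replicates and without MI-2-2 replicate 2 or 3. NR1H3, which encodes liver X receptor alpha, had overlapping groups at 0.41 ± 0.15 (adjusted p = 0.0457) and lost its call in 9 of 12 fits without 1 array. The receptor's list had 1 rise without combination replicate 2 or 3. MI-2-2 alone had already raised 8 of those 11 genes over DMSO and lowered none, while it raised 1443 of all 14209 genes. ABCG1 rose by 8.09 ± 0.24 in that comparison. Of 13 genes of the DOT1L and elongation complexes 2 rose and 2 fell, with 1 fall without combination replicate 1 or 2 or MI-2-2 replicate 1. This list did not stand apart from all genes, of which 39.2% were called. Of 11 genes of the menin and KMT2 complex 3 rose and 1 fell, which did not stand apart either. There, only KMT2A remained called without combination replicate 3, the fall was lost without combination replicate 1 or MI-2-2 replicate 3, and 2 fell without MI-2-2 replicate 1. In a fit of all 44 human arrays 1 gene of that complex rose, PSIP1, and none fell. The calls of KMT2A, NCOA6 and WDR5 were lost in that fit.

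Promoter sequences from RefSeq on GRCh38.p14 are shown for 1 gene in each of 5 lists that moved, so that the letters before their start sites can be set beside the changes above. In each list the called gene with the largest change and a single start site in the table was taken, a rule set after motif counts had been seen but without use of them. The 250 bases before the start site are printed on the gene's strand, with capitals where a searched motif matched.
MEIS1, chr2:66434875-66435124, plus strand: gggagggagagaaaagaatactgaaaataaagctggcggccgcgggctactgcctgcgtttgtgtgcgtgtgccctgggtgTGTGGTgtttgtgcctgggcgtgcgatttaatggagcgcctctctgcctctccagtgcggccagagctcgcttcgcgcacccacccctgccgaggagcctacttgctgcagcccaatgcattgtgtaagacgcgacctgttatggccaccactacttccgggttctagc
CD14, chr5:140633176-140633425, minus strand: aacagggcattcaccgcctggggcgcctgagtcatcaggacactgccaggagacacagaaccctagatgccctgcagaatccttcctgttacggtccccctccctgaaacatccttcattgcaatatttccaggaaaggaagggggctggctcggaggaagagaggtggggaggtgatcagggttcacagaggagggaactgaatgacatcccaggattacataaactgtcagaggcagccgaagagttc
FPR1, chr19:51751879-51752128, minus strand: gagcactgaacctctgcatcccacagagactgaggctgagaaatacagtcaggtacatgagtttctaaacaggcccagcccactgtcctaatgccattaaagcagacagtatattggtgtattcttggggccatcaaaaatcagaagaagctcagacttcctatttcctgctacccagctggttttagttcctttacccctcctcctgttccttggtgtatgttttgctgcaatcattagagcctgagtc
RRP9, chr3:51941905-51942154, minus strand: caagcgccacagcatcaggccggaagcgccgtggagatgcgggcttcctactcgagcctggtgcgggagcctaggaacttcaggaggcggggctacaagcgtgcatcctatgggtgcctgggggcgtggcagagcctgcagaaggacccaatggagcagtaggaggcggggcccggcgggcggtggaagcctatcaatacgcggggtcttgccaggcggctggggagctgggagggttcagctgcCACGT
STC2, chr5:173328415-173328664, minus strand: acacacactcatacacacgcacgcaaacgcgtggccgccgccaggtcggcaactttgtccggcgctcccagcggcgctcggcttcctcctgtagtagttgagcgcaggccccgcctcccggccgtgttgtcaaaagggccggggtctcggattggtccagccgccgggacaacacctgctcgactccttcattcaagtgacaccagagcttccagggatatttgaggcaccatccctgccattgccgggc
The capitals in MEIS1 mark the RUNX motif TGTGGT, which begins 169 bases before the start site. Those in RRP9 mark the first letters of the MYC E-box CACGTG, which begins 5 bases before the start site and runs into the transcript. The printed bases of CD14, FPR1 and STC2 hold none of the searched letters.

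The 7 motifs were searched on both strands in 300 bases per gene, 250 before and 50 after the first listed start site, for 2028 of 2522 rises (80.4%) and 2512 of 3054 falls (82.3%). The E-box CACGTG was in 7.74% of rises, 13.3% of falls and 7.43% of all 27305 promoters in the table. The PU.1 motif GAGGAAGT was in 3.6% of rises, 2.15% of falls and 2.54% of all promoters. The C/EBP pair TTGCNNAA was in 8.38%, 7.36% and 10.6%, and its palindrome TTGCGCAA, which also matches that pair, in 0.247%, 0.279% and 0.128%. The RUNX motif was in 10.3%, 8.84% and 13.1%, the C/EBP-ATF element TGATGCAA in 0.74%, 0.836% and 0.923%, and the HOX-MEIS motif TGATTTAT in 0.296%, 0.398% and 0.883%. The whole table includes genes that were not tested here. The share over all genes tested is not given, since only 79.8% of them had a promoter in the table. These shares are descriptions without a test.

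The same compound was also added without MI-2-2, in the comparison of EPZ004777 with DMSO, which shares no array with the one above. There 3941 of 14209 genes were called (27.7%), 2165 higher (15.2%) and 1776 lower (12.5%). Rises common to both comparisons numbered 1442, which is 57.2% of the rises on top of MI-2-2 and 66.6% of those on top of DMSO. Common falls numbered 1174, or 38.4% and 66.1%. In opposite directions 43 genes rose on top of MI-2-2 and fell on top of DMSO, and 68 did the reverse. Across genes, which are not independent replicates, the changes had a Pearson correlation of 0.69.

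Whether the change differed with MI-2-2 present was tested as an interaction, the change on top of MI-2-2 minus the change on top of DMSO. Of 14209 genes 1816 were called (12.8%), 580 above 0 (4.08%) and 1236 below (8.7%), and without EPZ004777 replicate 2 the total was 1186. MEIS1 fell by 2.79 ± 0.06 on top of MI-2-2 and by 1.19 ± 0.06 on top of DMSO, with an interaction of -1.59 ± 0.09 (adjusted p = 8.53e-06). PBX3 had an interaction of -1.24 ± 0.08. For FLT3 (0.04 ± 0.10), CDK6 (-0.01 ± 0.08) and MEF2C (0.08 ± 0.08) no difference was detected.

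**Figure D4:**
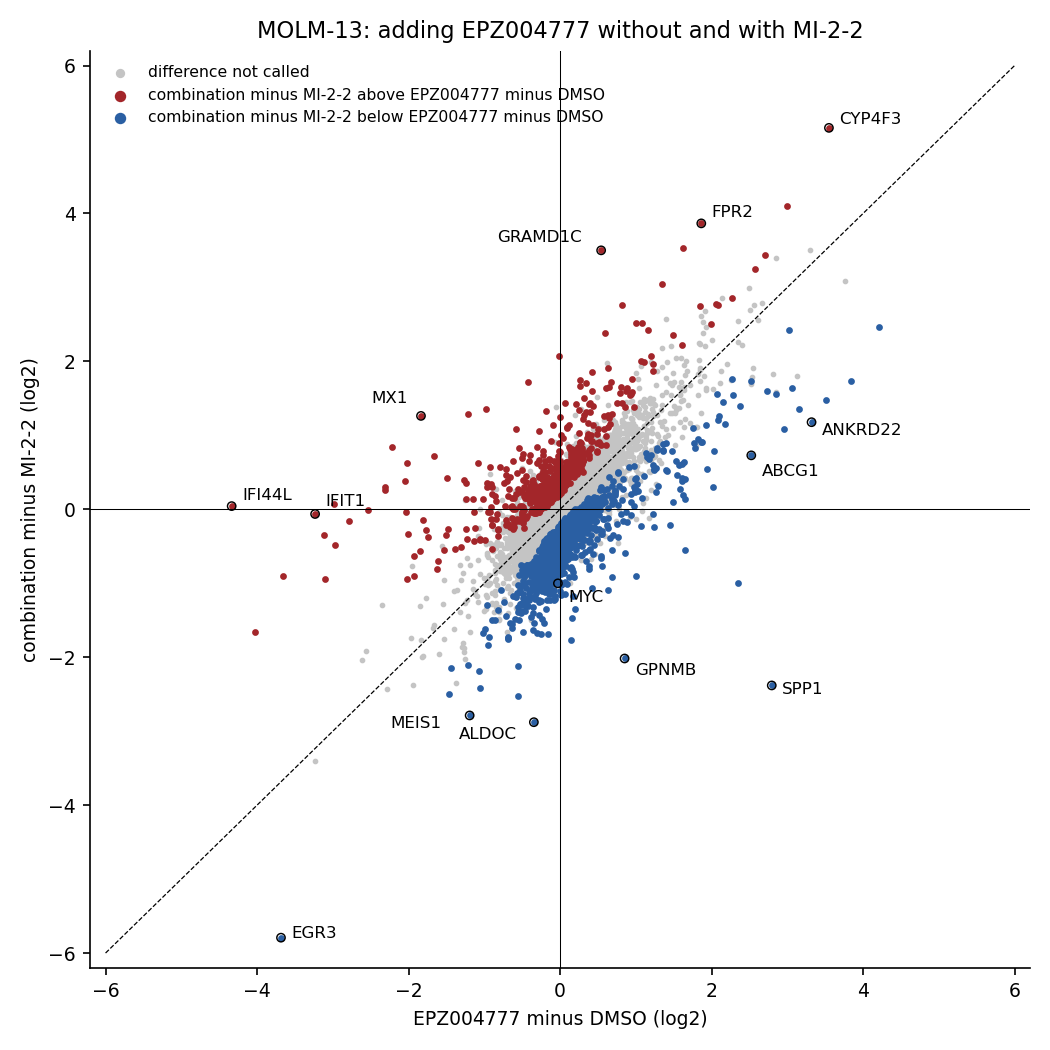
Log2 change of each of 14209 genes when EPZ004777 was added to DMSO (horizontal) and to MI-2-2 (vertical), with a dashed line where both are equal. Red and blue points had a called interaction above and below 0, such as IFI44L and SPP1, and grey points did not.

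Of the 14 genes of MYC and ribosome biogenesis, the 9 that fell on top of MI-2-2 had a called interaction below 0, as did 8.7% of all genes and 32% of all genes that fell on top of MI-2-2. The interaction includes that fall, so the falls are not independent of it. On top of DMSO 2 of the 14 rose and 2 fell. MYC had signals of 12.65, 12.66 and 12.58 with EPZ004777 and 12.75, 12.60 and 12.63 with DMSO. Those arrays overlapped, with a change of -0.03 ± 0.07, and the interaction was -0.97 ± 0.10 (adjusted p = 0.000245). Sterol synthesis also had 6 of 13 interactions called, all below 0, and on top of DMSO 2 of its genes rose and none fell. The amino acid stress genes fell in both settings, 17 of 22 on top of MI-2-2 and 19 on top of DMSO. Of all genes 21.5% and 12.5% fell. Among the amino acid stress genes 1 interaction was called on either side of 0. Monocyte and macrophage genes rose in both, 16 and 14 of 20, against 17.7% and 15.2% of all genes. Among these monocyte genes ITGAM changed by 0.26 ± 0.11 on top of DMSO, not called, with an interaction of 1.41 ± 0.15.

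The interferon genes separated the settings most. On top of DMSO 18 of 20 fell, against 12.5% of all genes, and none rose, with a median of -1.75. Of the same 20, on top of MI-2-2, 7 rose, against 17.7% of all genes. There 2 fell and 11 were not called, with a median of 0.17. Interactions above 0 numbered 17, against 4.08% of all genes. IFIT1, an antiviral RNA-binding protein, had signals of 8.68, 9.97 and 9.27 with DMSO, 6.15, 5.74 and 6.33 with EPZ004777, 4.45, 4.79 and 5.11 with MI-2-2 and 4.65, 4.92 and 4.58 with the combination. It was low in both groups that received MI-2-2, and those arrays overlapped below percentile 40. With MI-2-2 alone 18 of the 20 genes were already lower than with DMSO, against 8.35% of all genes, with a median of -2.29. OAS1, IFI6 and MX1, which are antiviral effectors, rose on top of MI-2-2 by 1.36 ± 0.23, 1.29 ± 0.16 and 1.26 ± 0.28 and changed on top of DMSO by -0.98 ± 0.23, -1.22 ± 0.16 and -1.84 ± 0.28, all called. SPP1, which encodes osteopontin, and GPNMB, a glycoprotein of macrophages, went the opposite way. SPP1 had signals of 6.41, 6.45 and 6.58 with the combination, 8.04, 8.94 and 9.60 with MI-2-2, 7.93, 8.53 and 7.35 with EPZ004777 and 5.69, 5.16 and 4.57 with DMSO. It was highest with the single compounds. PLXNC1, a semaphorin receptor, rose by 1.72 ± 0.13 on top of MI-2-2 and fell by 0.43 ± 0.13 on top of DMSO.

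**Figure D5:**
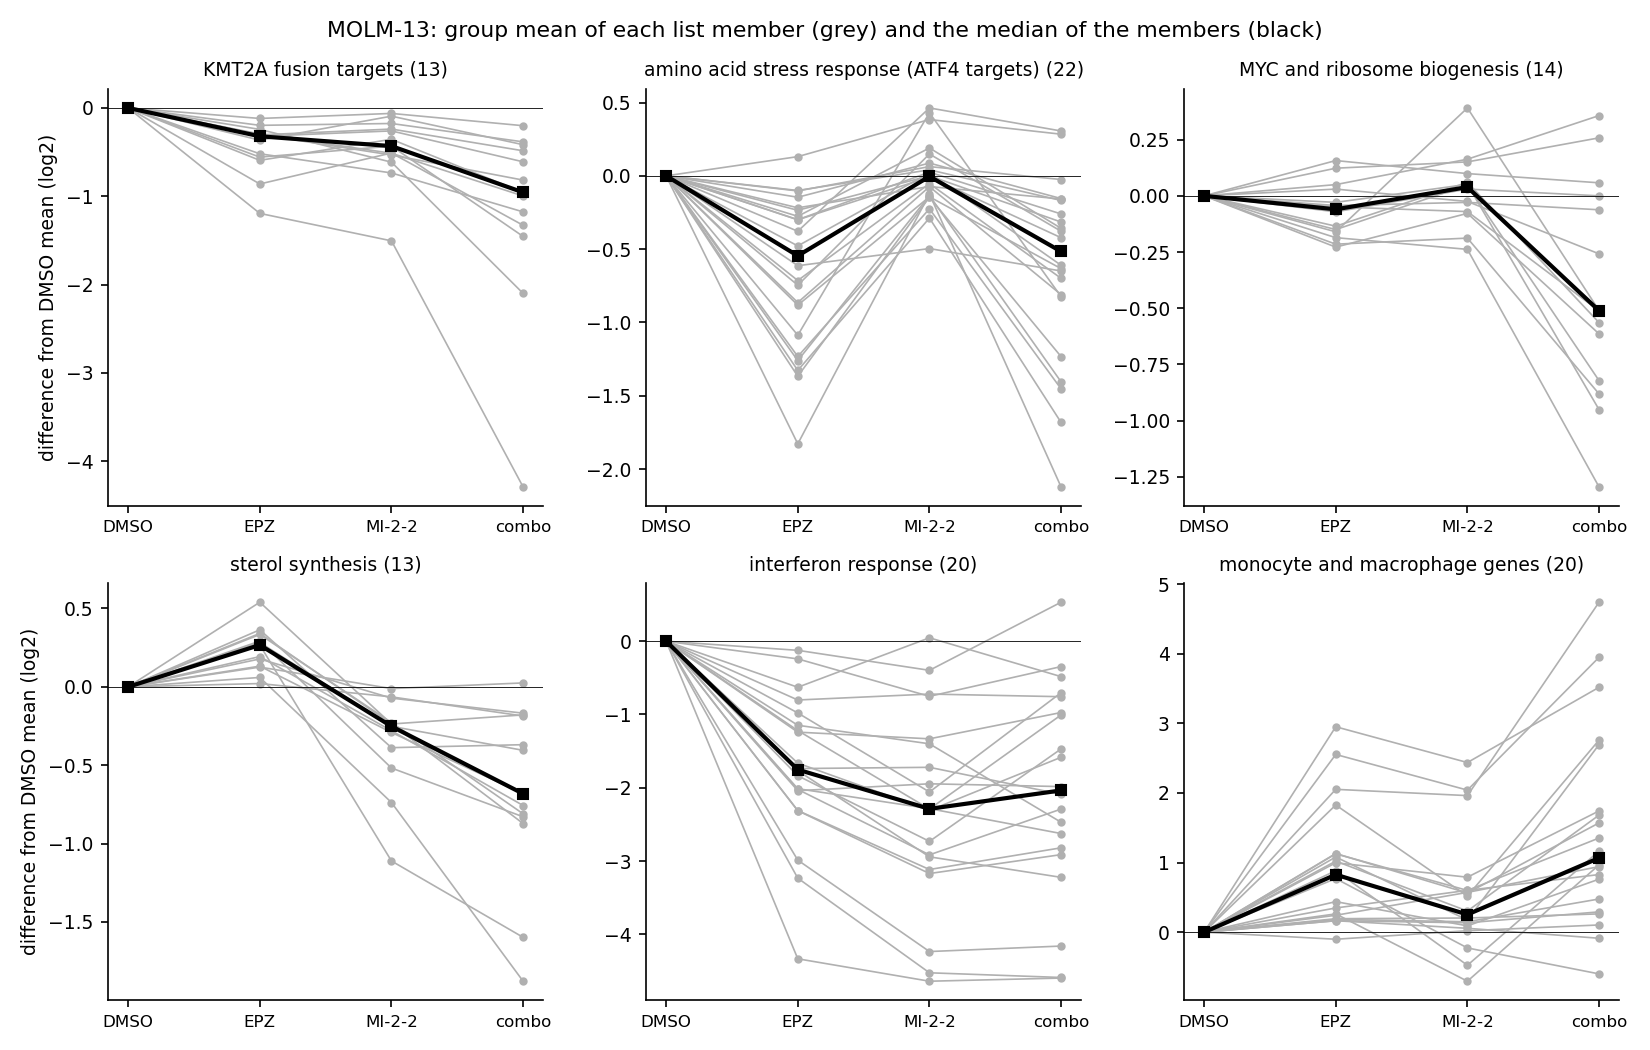
Mean log2 signal of each gene of 6 lists, as the difference from its DMSO mean, in the 4 groups of 3 arrays (EPZ, EPZ004777; combo, combination); grey lines are genes, black lines the median of the list, and the numbers of genes are in brackets. The 6 lists were picked after their values were seen; the interferon genes are low with MI-2-2 and with the combination, and the MYC list is low with the combination.

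Mouse cells transformed by MLL-AF9 received the same compounds at the same doses and times, and their values are set beside those of MOLM-13 without a test between species. Combination replicates 2 and 3 of the mouse cells stood apart in their 3′ minus 5′ actin signals (1.12 and 1.99, against at most 0.63 on the other arrays), so each result is given with all 12 arrays and then without those 2, which leaves 1 combination array assumed to vary like the other groups. In the mouse cells 8372 of 13365 genes were called (62.6%; 28.9% higher and 33.8% lower), and 8019 without those replicates (60%; 28.1% higher and 31.9% lower). Among 9864 genes matched by symbol, 909 of the 1930 MOLM-13 rises also rose in the mouse cells (47.1%), and 403 fell. Without the replicates these numbers were 971 and 357. Of 2322 falls 1372 also fell (59.1%) and 330 rose, or 1380 and 334 without them. Meis1 changed by -2.49 ± 0.09 (-2.53 ± 0.09 without them), Myc by -2.11 ± 0.14 (-2.47 ± 0.10) and Cdk6 by -1.78 ± 0.10 (-2.00 ± 0.08). The fusion targets did not all fall in the mouse cells: of 12 measured, 6 fell and 2 rose (7 and 2 without the replicates). Mef2c changed by -2.99 ± 0.20 (-2.41 ± 0.12), while Satb1 rose by 4.17 ± 0.16 (4.22 ± 0.24). Pbx3 was not called, at -0.25 ± 0.12 (-0.11 ± 0.16), nor was Flt3, at -0.20 ± 0.29 (0.03 ± 0.44). Other lists are counted here with all 12 arrays only, against 28.9% of mouse genes higher and 33.8% lower. Cell cycle genes went the other way in the mouse cells, with 4 of 27 higher and 11 lower. The unfolded protein response had 7 of 16 genes lower and none higher. Of 17 neutrophil and granule genes 10 rose and 6 fell, and of 15 monocyte and macrophage genes 14 rose and none fell. Itgam rose by 2.59 ± 0.21 (2.98 ± 0.24) and Cd14 by 1.43 ± 0.20 (2.01 ± 0.12). S100a9 rose by 0.40 ± 0.13, which was not called without the replicates (0.26 ± 0.17), and Mpo was not called in either fit. In the B-precursor lines, which had 10 µM MI-2-2 and 6 days, the combination against MI-2-2 called 1501 of 13921 genes in RS4;11 (10.8%), 675 of 14037 in SEM (4.81%) and 280 of 13961 in REH (2.01%). Those doses and times differ, and some groups of SEM and RS4;11 had fewer arrays than the MOLM-13 groups. No comparison with MOLM-13 was made.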

How the data were processed

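RNA of MOLM-13 cells was profiled on Affymetrix arrays. The authors deposited log2 signals per probe set, made with RMA in affy under R 3.0.2 per the submitters' processing notes; RMA pulls arrays to a common distribution, so a global shift would not be seen. MOLM-13 array medians differ from those of the other human arrays, so no level was compared across lines. Probe sets with 1 symbol were kept (41097 of 54675), the one with the highest mean per gene, if above percentile 40 on at least 2 arrays. HOXA9 was not analysed here. The 12 arrays were fitted in limma 3.58.1 (R 4.3.3; lmFit, eBayes) with 1 coefficient per group and Benjamini-Hochberg adjustment over all genes, after tests on simulated data. Values after ± are standard errors. Log2 differences understate the changes of dim genes.

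The comparison, gene lists and motifs were chosen with earlier results of these data known. Genes named were the 15 largest rises and falls whose arrays did not overlap (passing over symbols without a given name), members of described lists, the 6 largest interactions each way, up to 6 genes called in opposite directions, and MEIS1, PBX3, MEF2C, FLT3, CDK6, MYC, DOT1L and MEN1. Replicate numbers did not pair the samples: deviations of same-numbered combination and MI-2-2 arrays correlated at 0.03, -0.06 and 0.19. The motif counts over subsets of large changes, which were not part of the design, were tried and left out because fewer than 80% of those genes had a promoter. The mouse fit without 2 arrays was added after seeing the data.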

Additional observations from a re-analysis of the deposited data

Results flagged for a closer look

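The change on adding EPZ004777 differed with and without MI-2-2, by the interaction test, for 1816 genes. The largest values above 0 were IFI44L 4.38 ± 0.25, IFIT1 3.17 ± 0.41, MX1 3.10 ± 0.40, IFI44 3.06 ± 0.38, IFIT5 3.05 ± 0.46 and GRAMD1C 2.96 ± 0.16, all log2. IFI44L was below percentile 40 on all 3 MI-2-2 and all 3 combination arrays, with a change of 0.04 ± 0.18 between them. On top of DMSO it changed by -4.34 ± 0.18, and a further fall from such dim signals could not be seen. The largest below 0 were SPP1 -5.18 ± 0.57, GJA1 -3.34 ± 0.73, GPNMB -2.87 ± 0.27, ALDOC -2.53 ± 0.40, CAMSAP2 -2.20 ± 0.29 and ANKRD22 -2.14 ± 0.15. Among genes that moved in opposite directions in these settings, the interaction was 2.15 ± 0.18 for PLXNC1, 2.33 ± 0.33 for OAS1 and 2.50 ± 0.22 for IFI6. The interaction is the difference of those opposite changes, so its sign followed from how these genes were picked.

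Among genes named by rule or in the text, 19 were called in both MOLM-13 and the mouse cells with opposite signs. Over all matched genes, 403 of 1930 MOLM-13 rises fell in the mouse cells (20.9%) and 330 of 2322 falls rose (14.2%). Opposite signs were therefore not particular to the genes named. Lower in MOLM-13 and higher in the mouse cells were EGR1 (mouse change 4.68), SATB1 (4.17), GPNMB (3.51), ATF3 (2.68), CCL4 (1.24), PDGFA (1.09), USP18 (1.09), CHAC1 (0.70), MLLT10 (0.55), LSS (0.47) and HMGCS1 (0.41). Higher in MOLM-13 and lower in the mouse cells were SOX4 (-2.18), SDF2L1 (-1.63), PSIP1 (-1.28), MANF (-1.12), CTSG (-0.56), HSPA5 (-0.31), CTSZ (-0.31) and AURKB (-0.22). Without mouse combination replicates 2 and 3, LSS (0.03) and MLLT10 (-0.01) were not called, and the other 17 were called with the same sign. The difference between the species was not tested. Among 6631 probe sets with no symbol or several, which no comparison used, 1355 were called for the combination against MI-2-2 (20.4%), 659 higher and 696 lower.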

How the results depend on the processing

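The number of genes called for the combination against MI-2-2, 5576, lay between 4274 (without probe sets shared between transcripts, which tests 11449 genes) and 5938 (trended, robust variance) over 8 other ways of fitting, and between 4786 and 5757 when 1 array was left out. For EPZ004777 against DMSO the range without 1 array was 2877 to 4287, and for the interaction 1186 to 2196. With the replicate block the counts were 5422, 3676 and 1604; the numbers did not pair the samples, and 2 of 12 arrays correlated best with their own number. With the mean of all probe sets, LPCAT3 (-0.285), AFF1 (-0.225) and COL1A1 (0.612) changed sign. Without shared probe sets ANPEP, a blast marker called higher at 1.96, was at -0.162 and not called. The cause was not tested. With 3 arrays per group, changes near the median standard error of 0.083 cannot be resolved.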
